A study of Mus musculus with 66 samples.

Results

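The genes described here were followed through mouse oocyte formation, and most act at the entry into the cell division cycle. Those are the D-type cyclins Ccnd1, Ccnd2 and Ccnd3, their kinase partners Cdk4 and Cdk6, and the inhibitors Cdkn1b, Cdkn2c and Cdkn2d. The atypical cyclin Ccno was followed beside them. All these genes were chosen by name, and make up 9 of the 24062 genes of the expression table. All 9 were measured, and all 9 passed the filter on low values in each of the 3 model fits used.

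The study measured poly(A) RNA by RNA-seq in 66 libraries of 24 groups. Germ cells and oocytes came from ovaries carrying the stella-ECFP(SC) reporter transgene (strain C57BL/6 x B6D2F1) on 3 fetal days (E14.5, E16.5, E18.5) and on postnatal days P1 and P3. At P4 and P6 they were taken as a small and a large class, and each group had 3 libraries. In the culture course, primordial germ cell-like cells (PGCLCs) made from wild-type mouse embryonic stem cells (C57BL/6 X 129/SvJ) and marked by Blimp1-mVenus were aggregated into reconstituted ovaries with somatic cells that had been isolated from E12.5 gonads. Germ cells were sampled from D5 to D11 (at D5, D7, D9, D10 and D11) and oocytes from D13 to D20 (at D13, D15, D17 and D20), again with 3 libraries each. Another set of 12 libraries held D21 oocytes, with 2 libraries per group. These were wild type (WT) or carried the Foxo3dNES transgene (Tg), and were grown in normoxia (air), in hypoxia (5% O2) or in an oxygen condition that the labels do not give. All cultures received the Rock inhibitor Y-27632 in their first days. The promoter that drives the transgene, the number of Tg lines and the rule for the size classes are not given in the sources used here. Libraries labelled germ cell (E14.5 to E18.5, D5 to D11) and oocyte (all later ones) are compared below across that change of label.

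As background, D-type cyclins bind CDK4 and CDK6, and the active kinases phosphorylate the retinoblastoma protein, which frees E2F factors to switch on genes for DNA replication. CDKN1B (p27) restrains cyclin-CDK complexes, while CDKN2C (p18) and CDKN2D (p19) belong to the INK4 family that binds CDK4 and CDK6 directly. Oocytes stop dividing when they enter meiosis in the fetal ovary, and mouse genetics has tied Cdkn1b to keeping primordial follicles dormant. Ccno is best known from multiciliated cells, where it takes part in the amplification of centrioles, and it lies on chromosome 13 beside Mcidas and Cdc20b, which are used by those cells too.

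Depth was 13888938 to 23188562 reads in the ovarian libraries, 14675044 to 22807730 reads in the culture course and 4843643 to 21261797 reads at D21, where the 4 libraries of ungiven oxygen held 4843643 to 8719895 reads. Values are reads per 1000000 reads of a library (RPM), not divided by gene length. In the deepest library 3 reads equalled 0.129 RPM, and in the shallowest 0.619 RPM. Germ cell and oocyte markers (Ddx4, Dazl, Dppa3, Sycp3, Figla, Gdf9 and Zp3) summed to 1939 to 20170 RPM per library, and none was at 0 in all libraries of a group. The targeted gene was checked at D21, where Foxo3 stood at 88.5 and 44.8 RPM in WT normoxia and at 322 and 324 RPM in Tg normoxia. These are bulk libraries, so fewer cells of a type and less RNA per cell cannot be told apart.

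Upstream sequence is shown for Ccno and Cdk4, a pair picked for its repeated E-box matches after these had been seen. RefSeq promoter entries (GRCm38.p6) matched 7 of the 9 members, all but Ccnd1 and Ccnd2. The 250 bases before the start site of the + strand were read at chr13:112987552-112987801 for Ccno and at chr10:127063285-127063534 for Cdk4. Capitals mark CANNTG matches (E-boxes), which read CAGCTG in Ccno and CACGTG in Cdk4.
Ccno: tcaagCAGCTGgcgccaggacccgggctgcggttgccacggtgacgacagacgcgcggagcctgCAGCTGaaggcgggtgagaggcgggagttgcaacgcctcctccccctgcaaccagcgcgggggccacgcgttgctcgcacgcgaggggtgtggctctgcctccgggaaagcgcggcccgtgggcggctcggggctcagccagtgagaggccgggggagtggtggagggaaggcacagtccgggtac
Cdk4: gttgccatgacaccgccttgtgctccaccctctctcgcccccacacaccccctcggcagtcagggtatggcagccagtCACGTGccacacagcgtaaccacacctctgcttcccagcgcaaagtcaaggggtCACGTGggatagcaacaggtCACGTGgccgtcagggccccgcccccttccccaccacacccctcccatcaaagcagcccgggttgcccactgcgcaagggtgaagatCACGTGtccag

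The Ccno stretch held 2 CAGCTG matches and the Cdk4 stretch 4 CACGTG matches. Both strands of all 7 members' stretches were searched for CANNTG, for TAATTG or TAATTA (the element bound by NOBOX), for TGTTTAC (FOXO), for TTTNGCGC (E2F) and for ACGTG (the core of the hypoxia response element). Every CACGTG contains ACGTG on both strands, so these hits overlap. Of 32851 RefSeq promoter stretches of the same length, 66.2% held CANNTG, 13% held CAGCTG, 6.02% held CACGTG, 11.3% held TAATTG or TAATTA, 3.17% held TGTTTAC, 1.13% held TTTNGCGC and 16.6% held ACGTG. Cdk6 had 1 CACGTG, Ccnd3 had 1 TGTTTAC, and Cdkn2c had 1 TAATTA and 2 ACGTG matches, while Cdkn1b and Cdkn2d had no match to any of them. E-boxes were thus present in 3 of the 7 members. These members had 9 stretches in all. Ccnd3 and Cdkn2c had 2 each, and all matches of either gene lay in 1 of its 2. The shares above are per stretch, not per gene. The letters CAGCTG and CACGTG were counted apart after the matches had been seen.

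**Figure D1:**
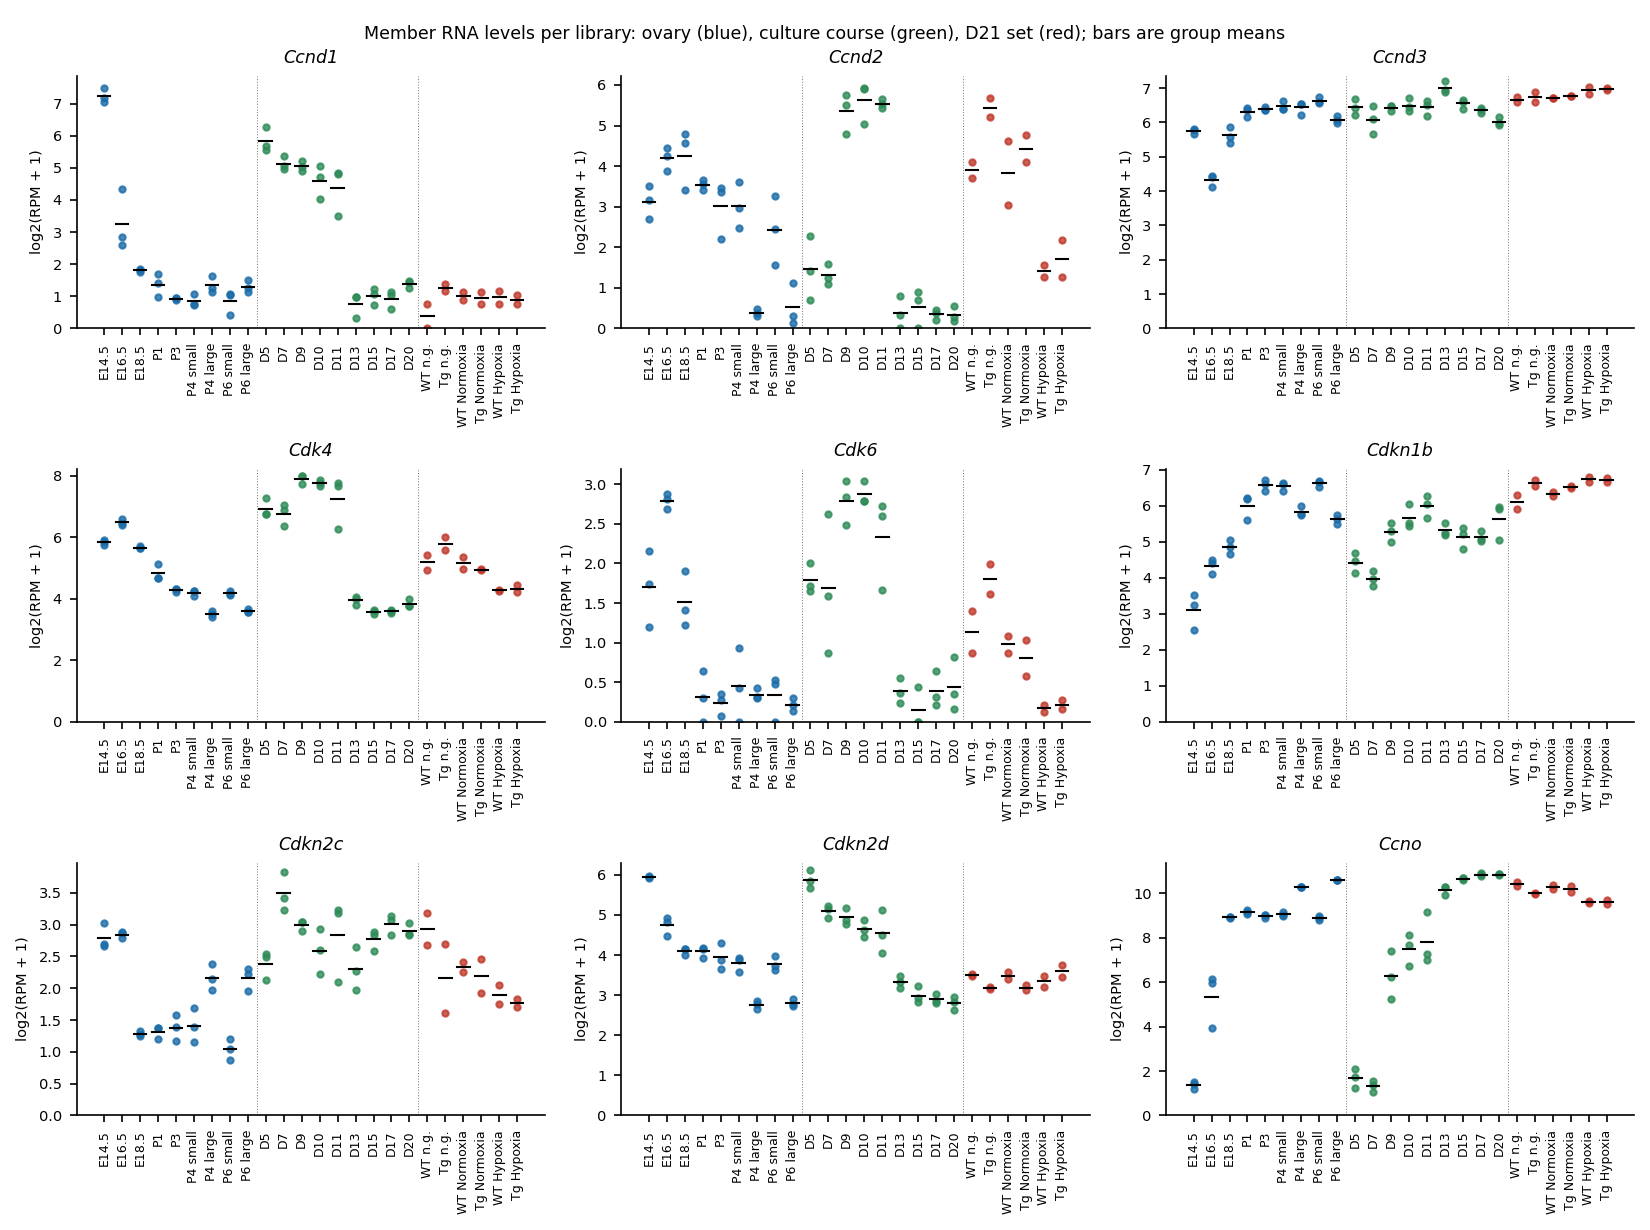
RNA level of each member in every library, as log2(RPM + 1) on the vertical axis, over the 24 groups on the horizontal axis. Points are libraries coloured by set, bars are group means, and n.g. marks D21 groups whose oxygen is not given; Ccno climbs from 1.61 RPM at E14.5 to 483 RPM at E18.5, while Ccnd1 drops from 151 to 2.5 RPM.

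Because RPM grows with transcript length, levels were set side by side between genes only per kilobase of the RefSeq transcript. On that scale Ccno was the most abundant of the 9 in 18 of 24 groups, Cdk4 in 4 (E16.5, D5, D7 and D9) and Cdkn2d in 1 (E14.5), while Ccno and Cdk4 tied at D10 (105 RPM per kilobase each). At P3 the means were 267 RPM per kilobase for Ccno, 39.9 for Cdkn1b, 39.3 for Ccnd3, 10.3 for Cdkn2d and 9.11 for Cdk4. Cdk6 was at the other end, with 0.0156 RPM per kilobase at P3, and 14 of its 66 libraries held 3 reads or fewer. Transcripts of the D-type cyclins were dominated by Ccnd1 and Ccnd3 at E14.5 (40.4 and 25 RPM per kilobase, against 1.26 for Ccnd2) and by Ccnd3 at P3 (Ccnd1 0.238 and Ccnd2 1.21).

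In the fetal ovary the first comparison set germ cells at E16.5 against E14.5, days in which they enter meiotic prophase. Ccnd1, a D-type cyclin of proliferating cells, stood at 142, 131 and 180 RPM at E14.5 and at 6.15, 5.04 and 19.3 RPM at E16.5. The groups did not overlap, and Ccnd1 fell by 3.97 on the log2 scale (SE 0.30, adjusted p = 2.5e-11, limma). Here and below, log2 changes are those of RPM + 1, which understates changes of low genes, and p-values are adjusted over all genes of a fit. Ccnd3 fell from 55, 50 and 53.9 to 16.2, 20.7 and 20.2 RPM (log2 change -1.44, SE 0.11, adjusted p = 6.7e-11). Its E16.5 level was the lowest of the 24 groups.

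Ccnd2, the remaining D-type cyclin, went the other way, from 5.49, 7.98 and 10.4 RPM to 13.7, 20.7 and 18.1 RPM. The groups were apart, with a log2 change of 1.07 (SE 0.39, adjusted p = 0.02). This call was lost with a pseudocount of 0.1 (adjusted p = 0.068), with median-of-ratios scaling (0.064), with edgeR (0.098), with DESeq2 (0.097), and without E14.5 replicate 1 or E16.5 replicate 2. Cdk4, the main kinase partner, rose from 52.9, 57.2 and 59.8 to 82.8, 96.3 and 88.5 RPM (log2 change 0.65, SE 0.11, adjusted p = 1.6e-05). Cdk6 changed from 1.29, 2.35 and 3.46 to 6.05, 6.34 and 5.43 RPM (log2 change 1.09, SE 0.23, adjusted p = 0.00022), a call that edgeR and DESeq2 did not make (adjusted p = 0.18 for each) and that a pseudocount of 0.1 lost too (0.089).

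Among the inhibitors, Cdkn1b rose from 4.85, 8.5 and 10.5 to 16.1, 20.4 and 21.7 RPM (log2 change 1.23, SE 0.18, adjusted p = 1.7e-06). Cdkn2d fell from 60.5, 59.4 and 62 to 27.1, 21.4 and 29.2 RPM (log2 change -1.21, SE 0.15, adjusted p = 1.6e-07), so these inhibitors moved in opposite directions. Cdkn2c lay at 5.31 to 7.16 RPM at E14.5 and at 5.9 to 6.35 RPM at E16.5, with overlapping groups. Ccno was at 1.29, 1.87 and 1.67 RPM at E14.5 and at 70.3, 14.2 and 61.9 RPM at E16.5. Its spread at E16.5 was wide, yet the lowest of those libraries lay above all of E14.5 (log2 change 3.98, SE 0.30, adjusted p = 2.1e-11).

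At E16.5, 8 of the 9 members passed the test against E14.5, 5 higher and 3 lower, where 67.3% of the 15401 genes tested did (42.7% higher and 24.6% lower) and the median gene changed by 0.20. Over the same days 9 of 11 tested granulosa markers were higher, their median change being 1.67, and the summed level of the 12 went from 21.7 to 28.6 RPM per library at E14.5 to 115 to 141 RPM at E16.5. Fshr was at 0 in both groups and Hsd17b1 at E14.5. Of 6 tested stroma and theca markers 4 were higher, among them Nr2f2 (3.32) and Col3a1 (2.89), and the sum of the 8 went from 6.54 to 10 RPM to 50.6 to 96.5 RPM, with Tcf21 at 0 in both groups and Lum at E14.5. Both blood markers tested, Hba-a1 and Hba-a2, were higher too. The part of these cells in the change of any member was not tested.

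From E16.5 to E18.5 Ccno climbed further, to 482, 493 and 475 RPM (log2 change 3.57, SE 0.30, adjusted p = 2.5e-10). Its mean of 483 RPM was 9.9-fold that of E16.5, and the 3 libraries differed little. Ccnd3 returned to 46.9, 57.4 and 41.4 RPM (log2 change 1.30, SE 0.11, adjusted p = 6.4e-10), and Ccnd1 fell on to 2.5, 2.37 and 2.63 RPM (log2 change -1.45, SE 0.30, adjusted p = 0.00018). The kinases fell, Cdk4 to 49.2, 49.2 and 51.2 RPM (log2 change -0.82, SE 0.11, adjusted p = 7.3e-07) and Cdk6 to 1.34, 1.67 and 2.75 RPM (log2 change -1.28, adjusted p = 4.6e-05). For Cdk6 the call was lost with a pseudocount of 0.1 (adjusted p = 0.051), with edgeR (0.066) and with DESeq2 (0.05).

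Both INK4 members fell at E18.5, Cdkn2c from 6.35, 5.9 and 6.28 to 1.51, 1.44 and 1.37 RPM (log2 change -1.56, SE 0.17, adjusted p = 3.2e-08) and Cdkn2d to 16.7, 16.9 and 15.1 RPM (log2 change -0.63, adjusted p = 0.00093). Cdkn1b reached 24.3, 32.4 and 27.8 RPM (log2 change 0.52, SE 0.18, adjusted p = 0.017), a call lost without E16.5 replicate 1 or E18.5 replicate 2. Ccnd2 lay at 9.7, 26.5 and 22.8 RPM, overlapping E16.5. The members called were 8, 3 higher and 5 lower, against 61.4% of all genes (26.1% higher and 35.3% lower). Granulosa markers summed to 55.5 to 93.9 RPM at E18.5, with 4 of 11 called lower. Their part in the change of any member was not tested.

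Around birth fewer members, and fewer of all genes, were called than between the fetal days. At P1 against E18.5 there were 2 higher and 2 lower, where 44.3% of all genes were called (20.1% higher and 24.1% lower). At P3 against P1 there were 1 higher and 1 lower, where 14.6% of all genes were called (7.19% higher and 7.45% lower). Cdkn1b rose at P1 to 47.3, 72.7 and 71.3 RPM (log2 change 1.14, SE 0.18, adjusted p = 2e-05). Ccnd3 rose to 69.9, 81.2 and 83.7 RPM (log2 change 0.69, SE 0.11, adjusted p = 3.5e-05), while Cdk4 fell to 34.3, 24.7 and 24.5 RPM (log2 change -0.84, SE 0.11, adjusted p = 1.8e-06). Cdk6 fell to 0.555, 0 and 0.229 RPM (log2 change -1.21, SE 0.23, adjusted p = 0.00019) and stayed under 1 RPM in every later ovarian library. Somatic markers fell over the same days. Granulosa markers summed to 28.7 to 38.4 RPM at P1, with 8 of 11 called lower (median change -0.84) and Fshr at 0 in both groups. Stroma and theca markers went from 30.9 to 69.5 RPM to 12.8 to 21.1 RPM, with 3 of 6 called lower (median -1.13). Their part in the change of any member was not tested.

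At P3 Cdk4 fell again, to 19.2, 17.8 and 19 RPM (log2 change -0.54, SE 0.11, adjusted p = 0.0023). Cdkn1b stood at 84.7, 105 and 97 RPM, above all P1 libraries (log2 change 0.60, SE 0.18, adjusted p = 0.028). That Cdkn1b call was lost without P1 replicate 1, P3 replicate 2 or P3 replicate 3. Ccno stood at 610, 537 and 561 RPM at P1 and 517, 473 and 513 RPM at P3 and passed neither test (log2 change 0.23 with an adjusted p of 0.56, then -0.18 with 0.75). Ccnd2 at 10.7, 11.6 and 9.67 RPM at P1 passed no test either (adjusted p = 0.14), except without E18.5 replicate 1, where its log2 change of -1.14 passed. Over the whole span the P3 means of Cdkn1b and Ccno (95.6 and 501 RPM) stood above those of E14.5 (7.95 and 1.61 RPM), and the P3 means of Ccnd1 and Cdk4 (0.891 and 18.7 RPM) below them (151 and 56.6 RPM).

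**Figure D2:**
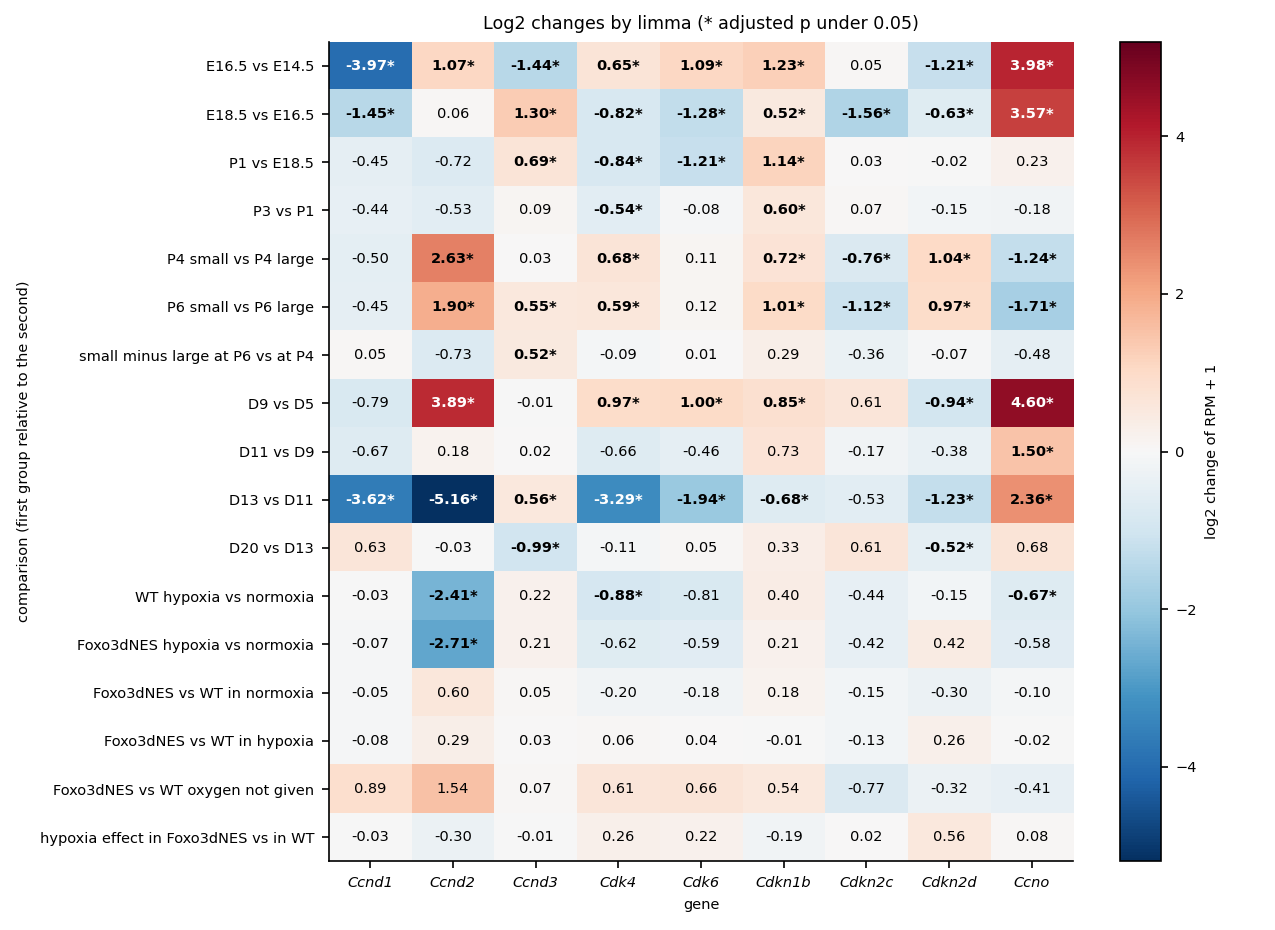
Log2 change of RPM + 1 for each member (columns) in each comparison (rows), with colour for size and direction, and an asterisk for an adjusted p under 0.05 by limma. Ccno carries the strongest increases (3.98 at E16.5, 4.60 at D9) and Ccnd2 the strongest decrease (-5.16 at D13).

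The next comparison set small against large oocytes of the same age. Of the 9 members, 4 were higher and 2 lower in small oocytes at P4, where 69.2% of all genes were called (48.7% higher and 20.5% lower). At P6, 5 were higher and 2 lower, where 73.4% of all genes were called (51.3% higher and 22.1% lower). The median gene was higher in small oocytes on the RPM scale by 0.34 at P4 and 0.41 at P6, and by 0.01 and 0.00 with median-of-ratios scaling, so each change below is to be read against that shift.

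Ccno, the most abundant member per kilobase in both classes, was lower in small oocytes. At P4 it stood at 567, 502 and 515 RPM in small and at 1234, 1243 and 1253 RPM in large oocytes, a ratio of means of 2.35 (log2 change -1.24, SE 0.30, adjusted p = 0.00068). At P6 it stood at 466, 443 and 502 RPM in small and at 1538, 1529 and 1557 RPM in large oocytes, a ratio of 3.28 (log2 change -1.71, SE 0.30, adjusted p = 1.2e-05). Small oocytes of both ages lay near the P1 and P3 levels, and the large class lay above every other ovarian library. The difference between the ages, -0.48, did not pass the test (95% interval -1.34 to 0.39).

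Cdkn1b showed the opposite order. It was at 84.5, 96.5 and 98.4 RPM in small and 63, 53.2 and 52.3 RPM in large oocytes at P4 (log2 change 0.72, SE 0.18, adjusted p = 0.0011), and at 103, 101 and 90.5 RPM against 52.5, 44.1 and 48.9 RPM at P6 (1.01, SE 0.18, adjusted p = 2e-05). Small oocytes kept the P3 level, with no overlap with the large class at either age. The P4 call was lost with median-of-ratios scaling (log2 change 0.25, adjusted p = 0.19), with edgeR (0.31, 0.11) and with DESeq2 (0.26, 0.18), whereas the P6 call held in these 3 settings.

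The INK4 inhibitors split. Cdkn2d was higher in small oocytes, at 14.1, 13.8 and 11 RPM against 5.87, 6.24 and 5.3 RPM at P4 (log2 change 1.04, SE 0.15, adjusted p = 1.5e-06) and 12.3, 14.7 and 11.3 RPM against 6.5, 5.61 and 5.9 RPM at P6 (0.97, adjusted p = 3e-06). Cdkn2c was lower in small oocytes, at 1.61, 2.22 and 1.23 RPM against 3.4, 2.94 and 4.2 RPM at P4 (log2 change -0.76, SE 0.17, adjusted p = 0.00039) and 1.06, 1.31 and 0.837 RPM against 3.67, 2.88 and 3.93 RPM at P6 (-1.12, adjusted p = 2.3e-06). Neither gene's classes overlapped.

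Ccnd2 was detected mainly in the small class. It was at 11.2, 6.78 and 4.56 RPM in small and 0.23, 0.3 and 0.403 RPM in large oocytes at P4 (log2 change 2.63, SE 0.39, adjusted p = 2e-06). At P6 it was at 8.56, 4.45 and 1.97 RPM against 0.105, 1.18 and 0.234 RPM (1.90, SE 0.39, adjusted p = 0.00012). The classes did not overlap, although the small libraries spread widely. Granulosa markers summed to 19.8 to 25.9 RPM in small and 10.3 to 16 RPM in large oocytes at P4, and to 10.6 to 22.6 and 18.8 to 23 RPM at P6. Of 11 tested, small oocytes had 6 higher and 2 lower at P4, and 3 higher and 2 lower at P6. The members went both ways at P6, with Amhr2 (1.71), Wt1 (1.41) and Inha (0.78) higher and Gata4 (-3.10) and Fshr (-1.04) lower in small oocytes. Stroma and theca markers summed to 9.18 to 18.4 RPM against 1.73 to 3.36 RPM at P4 and to 6.63 to 29 RPM against 1.39 to 1.78 RPM at P6, with 5 of 6 and then 6 of 6 tested called higher in small oocytes and Tcf21 at 0 in all 4 groups. The part of either cell type in the result of any member was not tested.

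The kinase Cdk4 was at 18.2, 18 and 16 RPM in small and 11.3, 10.5 and 9.62 RPM in large oocytes at P4, and at 18.2, 16.4 and 17 RPM against 10.8, 10.8 and 11.8 RPM at P6. These are log2 changes of 0.68 (SE 0.11, adjusted p = 7e-06) and 0.59 (adjusted p = 4e-05). Both calls were lost with median-of-ratios scaling, where the values were 0.24 (adjusted p = 0.066) and 0.02 (0.92), and with DESeq2 (0.26 and 0.02), and the P6 call also with edgeR (0.09, adjusted p = 0.54). Cdk6 was under 1 RPM in every library of both classes.

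Ccnd3 depended on the scale. At P4 small and large oocytes overlapped (83.2, 82.4 and 98.3 against 92.5, 73.9 and 92.4 RPM, log2 change 0.03), and at P6 small oocytes were higher (105, 94 and 95.2 against 72.5, 65.5 and 62.5 RPM, log2 change 0.55, SE 0.11, adjusted p = 0.00013). With median-of-ratios scaling the values were -0.44 (adjusted p = 0.0014) at P4 and -0.06 (0.66) at P6, so the P4 value turned to lower in small oocytes and the P6 call was lost. The P6 value was 0.01 with edgeR (adjusted p = 0.95). The size difference at P6 minus that at P4 was 0.52 (SE 0.16, adjusted p = 0.048), the single member of 9 called in that test, where 8.52% of all genes were (5.88% with a positive and 2.64% with a negative value). This call was lost in each of the 6 other settings tried. Ccnd1 was at or under 2.13 RPM in all 12 libraries. Its log2 changes of -0.50 and -0.45 passed no test by limma, but with median-of-ratios scaling (-0.77 and -0.82), edgeR (-1.35 and -1.37) and DESeq2 (-1.42 and -1.44) it was called lower in small oocytes.

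Of 25 other G1/S genes (cyclins E, CDK2, the retinoblastoma and E2F families, the remaining inhibitors and their helpers), 12 were higher and 8 lower in small oocytes at P4, and 13 higher and 10 lower at P6. Over all genes 48.7% were higher and 20.5% lower at P4, and 51.3% higher and 22.1% lower at P6. The medians of the 25 were 0.29 and 0.25, beside 0.34 and 0.41 over all genes. The largest called changes of the list were those of Cdkn1a (3.03 and 4.01), the p21 inhibitor, and of the activator E2f3 (2.41 and 2.79). Ccnh (1.83 and 2.05), a subunit of the CDK-activating kinase, came next. Cdkn1a stood at 62.8, 41.4 and 72.4 RPM in small and 2.1, 3.35 and 2.53 RPM in large oocytes at P6. Of the 18 other cyclins, 9 were higher and 3 lower at P4, and 10 higher and 6 lower at P6, led at P6 by Ccni (1.84), Ccnl2 (1.53) and Ccng1 (1.48).

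In culture the same genes were followed from D5, before the change of label from germ cell to oocyte. Ccno was at 3.3, 1.36 and 2.35 RPM at D5 and at 37.1, 167 and 74.9 RPM at D9 (log2 change 4.60, SE 0.43, adjusted p = 1.6e-08), the largest increase of any member among the planned comparisons. Ccnd2 went from 3.89, 0.614 and 1.69 RPM to 26.8, 53.3 and 44.8 RPM (log2 change 3.89, SE 0.34, adjusted p = 4.7e-09). Neither gene's groups overlapped. Cdk4 rose from 108, 154 and 108 to 254, 212 and 252 RPM (log2 change 0.97, SE 0.25, adjusted p = 0.0041), its highest level of the 24 groups.

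Cdkn1b rose from 21, 16.4 and 24.6 RPM at D5 to 30.7, 45.3 and 38.1 RPM at D9 (log2 change 0.85, SE 0.23, adjusted p = 0.0063). Cdkn2d fell from 50, 69.1 and 56.2 to 35.1, 26.3 and 28.1 RPM (log2 change -0.94, SE 0.21, adjusted p = 0.0013). As in the ovary from E14.5 to E16.5, these inhibitors had opposite signs. Cdk6 went from 2.27, 3.03 and 2.14 to 6.18, 4.61 and 7.21 RPM (log2 change 1.0, adjusted p = 0.019), a call lost with a pseudocount of 0.1, median-of-ratios scaling (adjusted p = 0.051), edgeR and DESeq2, and without D5 replicate 3 or D9 replicate 3. Ccnd1, at 46.4, 50.7 and 75.5 and then 31.8, 29.1 and 36.1 RPM, did not pass (log2 change -0.79), but did with median-of-ratios scaling, edgeR and DESeq2, and without D5 replicate 1. Cdkn2c had its highest level of the 24 groups at D7 (8.34, 13.2 and 9.71 RPM) and did not pass from D5 to D9 (log2 change 0.61, adjusted p = 0.076).

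In all, 6 members were called at D9 against D5, 5 higher and 1 lower, where 32.3% of all genes were (24.2% higher and 8.15% lower), with a median gene change of 0.19. Granulosa markers summed to 31.5 to 43.9 RPM per library at D5 and 308 to 518 RPM at D9, with 9 of 12 called higher and Fshr at 0 in both groups. Stroma and theca markers summed to 4.38 to 16.6 RPM and 250 to 451 RPM. The part of these somatic cells in the change of any member was not tested.

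Between D9 and D11 the only member called was Ccno, at 125, 153 and 564 RPM at D11 (log2 change 1.5, SE 0.43, adjusted p = 0.033, against 7.47% of all genes, 5.48% higher and 1.99% lower). The groups overlapped, and D11 replicate 3 lay far above the other libraries. Without it the log2 change was 0.82, and the call was lost, as it was without D9 replicate 1 or 3, with a pseudocount of 0.1 and with no filter. The same library had the lowest Cdk4 of its group (203, 218 and 76.2 RPM) and the lowest Ccnd1 (27.7, 26.8 and 10.3 RPM). It also had the highest germ cell and oocyte marker sum of the 3 (2761, 2278 and 3880 RPM) and the lowest granulosa sum (388, 673 and 352 RPM). D11 replicate 2 stood apart in another way, with stroma and theca markers at 1833 RPM (187 and 190 RPM in the others) and blood and immune markers at 373 RPM (51.1 and 24.8 RPM). Cdkn1b, at 49.8, 65.5 and 76.7 RPM on D11, missed the threshold by limma (log2 change 0.73, adjusted p = 0.053) and passed with median-of-ratios scaling (0.037), edgeR (0.043) and DESeq2 (0.017).

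At D13 the libraries labelled oocyte differed sharply from D11. Ccnd2 fell from 45.5, 49 and 41.8 RPM to 0, 0.728 and 0.259 RPM (log2 change -5.16, SE 0.34, adjusted p = 4e-12). Ccnd1 fell to 0.983, 0.955 and 0.259 RPM (log2 change -3.62, SE 0.30, adjusted p = 3.2e-10), a ratio of means of 29.5. Cdk4 fell to 15.6, 14.8 and 13.1 RPM (log2 change -3.29, SE 0.25, adjusted p = 4.4e-11), a ratio of 11.5. None of the 3 genes had overlapping groups.

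Cdk6 fell from 5.59, 5.04 and 2.18 to 0.289, 0.182 and 0.467 RPM (log2 change -1.94, SE 0.32, adjusted p = 9.7e-06). Cdkn2d fell from 33.7, 21.6 and 15.7 to 9.02, 10.1 and 8.04 RPM (log2 change -1.23, SE 0.21, adjusted p = 1.5e-05). Ccno and Ccnd3 rose. Ccno reached 967, 1223 and 1254 RPM (log2 change 2.36, SE 0.43, adjusted p = 3.7e-05), and Ccnd3, at 72.5, 90.5 and 98 RPM on D11, reached its highest level of the 24 groups with 147, 117 and 122 RPM (log2 change 0.56, SE 0.16, adjusted p = 0.004).

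From these D11 values Cdkn1b went to 44.8, 36.8 and 35.7 RPM on D13 (log2 change -0.68, SE 0.23, adjusted p = 0.011). The call was lost with median-of-ratios scaling (-0.24, adjusted p = 0.34), edgeR (-0.21, 0.42) and DESeq2 (-0.27, 0.32), and without D11 replicate 3. Set against D7, whose libraries lay between 12.6 and 17.2 RPM, the D13 level was higher instead (log2 change 1.35, adjusted p = 1.1e-05). This baseline was added after the values had been seen. Cdkn2c, at 8.03, 8.35 and 3.27 and then 5.26, 2.91 and 3.84 RPM, did not pass (adjusted p = 0.071), but did without D11 replicate 3 or D13 replicate 1, and against D7 (log2 change -1.19).

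In all, 8 of the 9 members passed at D13 against D11, 2 higher and 6 lower, against 70.5% of all genes (19.8% higher and 50.7% lower) and a median gene change of -0.50 (-0.15 with median-of-ratios scaling). Germ cell and oocyte markers went from 2278 to 3880 RPM per library at D11 to 14383 to 15523 RPM at D13. Of the 7, 4 were called higher and 2 lower, and their relation to the rise of Ccno was not tested. Granulosa markers went from 352 to 673 RPM per library at D11 to 7.75 to 16.7 RPM at D13, with 10 of 12 called lower and Lgr5 at 0 at D13. All 8 stroma and theca markers and all 5 tested blood and immune markers were called lower too. Of 7 tested endothelium markers 4 were called lower and 1 higher. The part of these somatic cells in the change of any member was not tested. At D7, where granulosa markers summed to 32.3 to 36.2 RPM, Ccnd1 was at 30.3, 32.6 and 39.9 RPM and Cdk4 at 118, 131 and 82.1 RPM. Against D7 the fall at D13 was -4.37 for Ccnd1 (adjusted p = 4.5e-12) and -2.82 for Cdk4 (adjusted p = 2.4e-10), and -1.31 for Cdk6 (adjusted p = 0.00074). For Ccnd2, at 1.14, 1.36 and 2.01 RPM on D7, it was -0.93 (adjusted p = 0.015). The D7 baseline was added after the values had been seen, and D7 to D13 also spans the change of label from germ cell to oocyte. These values are no test of the part of somatic cells.

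**Figure D3:**
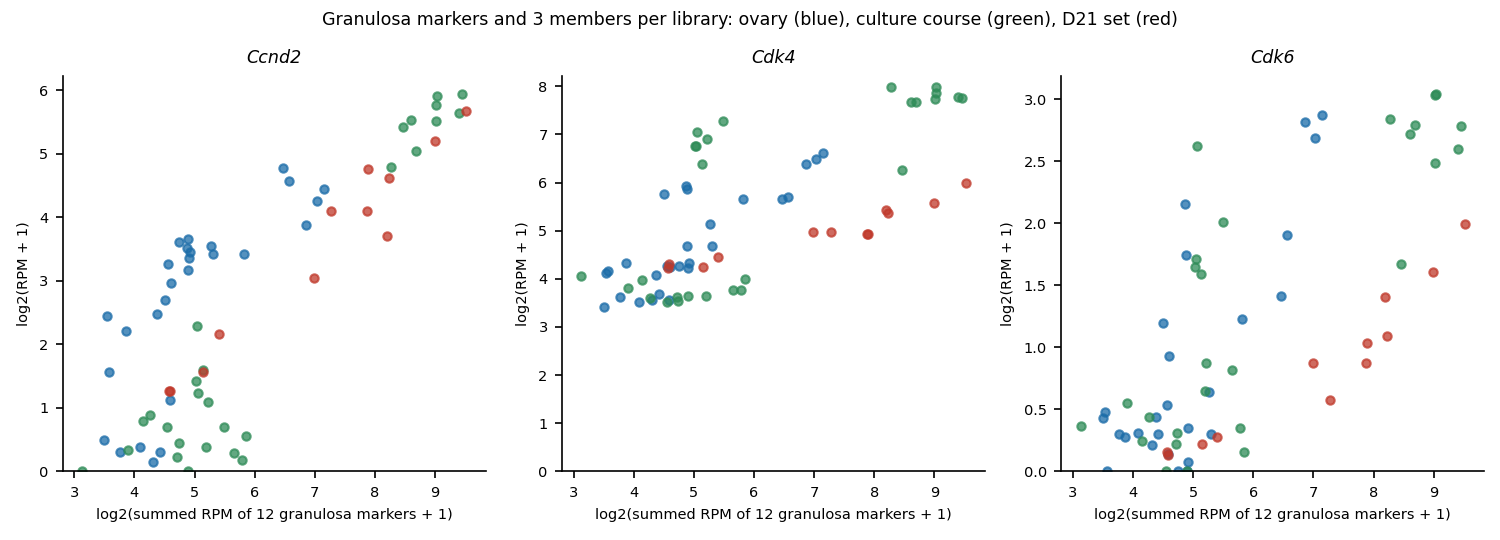
Levels of Ccnd2, Cdk4 and Cdk6 in each of the 66 libraries, as log2(RPM + 1) on the vertical axis, against the log2 of the summed RPM of 12 granulosa markers plus 1 on the horizontal axis. Points are coloured by set; D9 to D11 libraries sit at the upper right, and D5 and D7 libraries combine low marker sums with Cdk4 between 82.1 and 154 RPM.

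From D13 to D20 the levels were steadier, with 2 members called, both lower, against 46.1% of all genes (20.6% higher and 25.5% lower). Ccnd3 fell to 59.3, 69.7 and 62.7 RPM (log2 change -0.99, SE 0.16, adjusted p = 2e-05). Cdkn2d ended at 5.16, 6.14 and 6.8 RPM (log2 change -0.52, adjusted p = 0.046), a call lost with no filter, with median-of-ratios scaling, edgeR and DESeq2, and without D13 replicate 1 or 2 or D20 replicate 1 or 2. Ccno stood at 1814, 1841 and 1842 RPM at D20, above all D13 libraries, but with a log2 change of 0.68 that did not pass (adjusted p = 0.21). Cdk4 stayed at 12.6, 12.7 and 14.9 RPM, and Cdkn1b at 62, 32.1 and 59.1 RPM had overlapping groups. With edgeR (45.5% of all genes called) and DESeq2 (48.3%) the called members were 4, namely Ccnd3 (lower) and Ccnd1, Cdkn1b and Cdkn2c (higher).

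Among the 25 G1/S genes, 6 were higher and 4 lower at D9 against D5, where 24.2% and 8.15% of all genes were. At D13 against D11, 3 were higher and 19 lower, where 19.8% and 50.7% of all genes were. The list's median was -0.88 at D13, beside -0.50 over all genes. The largest called falls at D13 were those of Ccne2 (-3.67), a partner of CDK2, of Skp2 (-2.88), the F-box protein that marks p27 for destruction, and of Tfdp2 (-2.60), a partner of the E2F factors. Of the 18 other cyclins, 14 were lower and 1 higher, with Ccnjl (-3.21), Ccnb3 (-2.39) and Ccnl1 (-1.31) in the lead.

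Set side by side without a test, since strain and origin differ, D20 oocytes and large P6 oocytes had mean Ccno of 1832 and 1541 RPM, Cdk4 of 13.4 and 11.1 RPM, Cdkn1b of 51 and 48.5 RPM, Cdkn2d of 6.03 and 6 RPM, and Ccnd3 of 63.9 and 66.8 RPM. The pair of groups differed more in Cdkn2c, at 6.5 and 3.49 RPM, while Ccnd1 was at 1.63 and 1.48 RPM. Ccnd2 (0.274 and 0.508 RPM) and Cdk6 (0.383 and 0.165 RPM) differed too, with means under 1 RPM.

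The D21 set asks how oxygen and the Foxo3dNES transgene alter the oocytes. In WT cultures, Ccno was at 1332 and 1163 RPM in normoxia and at 759 and 807 RPM in hypoxia (log2 change -0.67, SE 0.16, adjusted p = 0.019). Ccnd2 was at 23.5 and 7.26 RPM and then at 1.41 and 1.97 RPM (log2 change -2.41, SE 0.48, adjusted p = 0.013). Cdk4 was at 40 and 30.2 RPM and then at 18.7 and 18 RPM (log2 change -0.88, SE 0.22, adjusted p = 0.022). Of the members only Ccnd1 and Cdkn2d overlapped between normoxia and hypoxia. The share of all genes without overlap was not counted, so this is no result about the members. Each of Ccno, Ccnd2 and Cdk4 was lower in both hypoxic libraries than in both normoxic ones.

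These 3 of 9 members were the ones called, all lower in hypoxia, where 22.5% of 14392 genes were called (15.9% higher and 6.55% lower) and the median gene changed by 0.14. The calls were lost without hypoxia replicate 1 or without hypoxia replicate 2, which leaves an arm with 1 library that is assumed to vary like the others. Over all genes the count of 3237 then ranged from 16 to 6011 as each of the 4 libraries in turn was left out. Cdkn1b stood at 82.4 and 76.7 RPM in normoxia and 111 and 99.8 RPM in hypoxia, without overlap, but did not pass (log2 change 0.40, adjusted p = 0.09, 95% interval 0.05 to 0.75). Cdk6 was at 1.13 and 0.833 RPM against 0.0941 and 0.164 RPM and did not pass by limma (adjusted p = 0.063), though it did with a pseudocount of 0.1 (0.026), edgeR (0.014) and DESeq2 (0.0034). Ccnd1, Ccnd3, Cdkn2c and Cdkn2d had log2 changes between -0.44 and 0.22, and none passed.

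In Tg cultures the same values were 1062 and 1270 RPM in normoxia and 824 and 728 RPM in hypoxia for Ccno (log2 change -0.58, SE 0.16, adjusted p = 0.12). Ccnd2 was at 26 and 16.1 RPM and then at 3.5 and 1.39 RPM (log2 change -2.71, SE 0.48, adjusted p = 0.03). Cdk4 was at 29.7 and 30.4 RPM and then at 20.9 and 17.7 RPM (log2 change -0.62, adjusted p = 0.24). Of the members only Ccnd1 had overlapping groups. The share of all genes without overlap was not counted, so this is no result about the members. Ccnd2 was the single member called, against 1.02% of all genes (0.153% higher and 0.869% lower). That call was lost with no filter (adjusted p = 0.089) and without any one of the 4 libraries, while DESeq2 added Ccno (-0.64, adjusted p = 0.00036). Cdkn1b was at 92.7 and 88.3 RPM in normoxia and 101 and 108 RPM in hypoxia (log2 change 0.21, adjusted p = 0.6).

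Granulosa markers moved with oxygen in both genotypes. They summed to 299 and 126 RPM in WT normoxia, 23 and 34.4 RPM in WT hypoxia, 236 and 154 RPM in Tg normoxia and 41.2 and 22.7 RPM in Tg hypoxia, with Krt19 at 0 in Tg normoxia. Of the 9 tested, 6 were called lower in WT hypoxia and 4 in Tg hypoxia. Their part in the change of any member was not tested. Of 7 tested endothelium markers, Cdh5 (2.35) and Tie1 (1.24) were called higher in WT hypoxia and 0 lower, and 0 were called in Tg hypoxia. Of 7 tested stroma and theca markers, 0 were called in either genotype. Blood and immune markers summed to 78.7 RPM in 1 WT normoxia library and to at most 1.74 RPM in the other normoxia and hypoxia libraries. Germ cell and oocyte markers summed to 14634 and 20170 RPM in WT normoxia and 8924 and 9769 RPM in WT hypoxia. Of these 7, Gdf9 (-0.91) and Zp3 (-1.03) were called lower in WT hypoxia and 0 higher, and their relation to the lower Ccno was not tested.

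The effect of hypoxia was not shown to differ between genotypes. The difference of the log2 changes was 0.08 for Ccno (95% interval -0.41 to 0.58), -0.30 for Ccnd2 (-1.82 to 1.22), 0.26 for Cdk4 (-0.43 to 0.96) and -0.19 for Cdkn1b (-0.69 to 0.30), and by limma 0 of all 14392 genes passed this test, with 869 at an unadjusted p under 0.05 (2 genes passed with DESeq2 and 0 with edgeR). For the transgene itself, 0 members were called in normoxia and 0 in hypoxia, where 0.00695% of all genes were called in each. Unadjusted p-values under 0.05 numbered 3454 and 68 over all genes, and 0 members were called by edgeR or DESeq2. In normoxia Tg minus WT was 0.18 for Cdkn1b (95% interval -0.16 to 0.53) and -0.10 for Ccno (-0.45 to 0.25), and in hypoxia it was -0.01 (-0.36 to 0.34) and -0.02 (-0.37 to 0.34). Without WT normoxia replicate 1 the Tg value of Ccnd2 in normoxia passed, at 1.38 against 0.60 with all libraries.

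Where oxygen was not given, Ccnd2 was at 12 and 16.2 RPM in WT and at 35.9 and 50.2 RPM in Tg (log2 change 1.54, SE 0.48, adjusted p = 0.075). Cdkn1b was at 58.6 and 77.2 RPM in WT and at 104 and 92.4 RPM in Tg (log2 change 0.54, adjusted p = 0.063). Ccno was at 1276 and 1442 RPM and at 989 and 1046 RPM (log2 change -0.41, adjusted p = 0.12). None of these groups overlapped, nor did those of Ccnd1, Cdk4, Cdk6 and Cdkn2d. The share of all genes without overlap was not counted, so this is no result about the members. By limma and by edgeR 0 of 9 members passed, against 6.85% of all genes by limma. DESeq2 called Ccnd2 (1.45, adjusted p = 0.044) and Ccno (-0.58, adjusted p = 0.0026), and without WT replicate 2 limma called Ccnd1 and Cdkn1b. Granulosa markers summed to 292 and 234 RPM in WT and to 508 and 734 RPM in Tg, and their part was not tested.

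**Figure D4:**
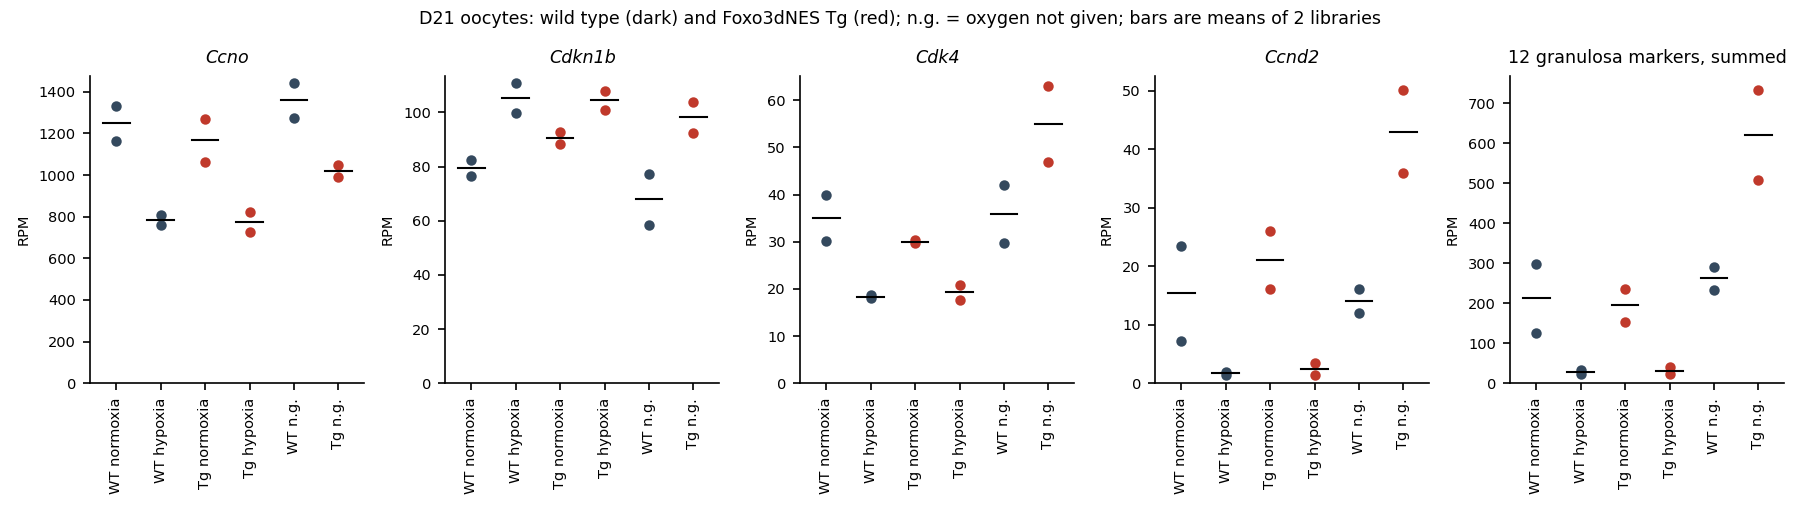
RPM of Ccno, Cdkn1b, Cdk4 and Ccnd2 and the summed RPM of 12 granulosa markers in the 12 D21 libraries, each axis starting at 0. Points are libraries, bars are means of 2 and n.g. is oxygen not given; hypoxic libraries are lower than normoxic ones of their genotype for Ccno, Cdk4, Ccnd2 and the markers.

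Of the 25 G1/S genes, 6 were higher and 1 lower in WT hypoxia, where 15.9% and 6.55% of all genes were. The list's median was 0.26 beside 0.14 over all genes. Its largest called changes were those of Cdkn1a (1.27), E2f3 (1.20) and Cks1b (-0.94). Cdkn1a was at 33.5 and 26.1 RPM in WT normoxia and 80 and 65.8 RPM in WT hypoxia. In Tg hypoxia 0 of the 25 passed, where 1.02% of all genes did. Of 16 tested other cyclins, 4 were higher and 1 lower in WT hypoxia, with Ccni (0.91), Ccny (0.58) and Ccnb2 (-0.56) in the lead.

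Ccno and its neighbours were next compared across the 24 groups. Mcidas (chr13:112993581-113000394), which switches on the multiciliated cell programme, never exceeded a group mean of 0.865 RPM, Cdc20b (chr13:113034975-113121019) never exceeded 1.38 RPM, and Gmnc, an upstream regulator of the same programme, never exceeded 0.481 RPM. Ccno itself (chr13:112987802-112990778) reached 1896 RPM in D17 replicate 2. Foxj1, a factor for motile cilia, was highest at D10 (7.28 RPM ± 3.84, SD, n = 3), and Ccdc78 in WT normoxia at D21 (3 RPM).

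Log2 group means were correlated over the 24 groups among 11357 genes, and predicted genes (Gm, Rik and LOC names) were then passed over. The remaining genes most like Ccno were Nexn (r = 0.994), Uchl1 (0.989) and Hmga2-ps1 (0.983). For Cdkn1b they were Rsu1 (0.958), Slc48a1 (0.946) and Ptger3 (0.942), for Ccnd2 Gatm (0.985), Thbs1 (0.981) and Axl (0.979), and for Cdk4 Srgap3 (0.983), Aebp1 (0.980) and Pcdhga1 (0.977). Among the members, Cdk4 and Cdk6 were closest (0.94), followed by Ccnd1 and Cdkn2d (0.89). The strongest negative values were those of Ccno with Cdkn2d (-0.93) and with Ccnd1 (-0.90). These figures describe groups that share libraries, depth and stage, and carry no test.

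Some members share bases with a gene on the other strand, namely Ccnd1 with Oraov1 (1100 bases), Ccnd3 with Bysl (359), Cdk4 with Tspan31 (641), Ccnd2 with the antisense gene Gm43126 (372) and Cdk6 with the antisense gene Gm17590 (110). The library kit was directional, but the strand setting of the counting is not given, so those values are uncertain to that extent. At D13 against D11, Tspan31 went from a mean of 64.6 to 96 RPM. The mean of Cdk4 went from 166 RPM to libraries of 13.1 to 15.6 RPM. Oraov1 went from 16.7 to 15.4 RPM while Ccnd1 went from 21.6 to 0.733 RPM. Between small and large oocytes, Tspan31 and Cdk4 had the same direction. Tspan31 means were 73.1 and 47.8 RPM at P4, and 73.4 and 40.2 RPM at P6. Those of Cdk4 were 17.4 and 10.5 RPM, then 17.2 and 11.1 RPM. Oraov1 was higher in small oocytes (24.2 and 10.1 RPM at P4), where Ccnd1 was lower (0.805 and 1.57 RPM). The part of the overlaps in these values was not tested.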

How the data were processed

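RPM values, which scale each library to 1000000 reads, were made by the authors, per the file headers and the labels, from directional poly(A) libraries amplified by 12 PCR cycles. The submitters' processing notes name TopHat2, Bowtie2 2.0.13, featureCounts 1.5.1, R 3.4.4 and mm10, and their roles, the annotation and the strand setting are not given in the sources used here. All values were whole multiples of 1 read per library, so whole reads were recovered for 100% of entries (within 0.01 read), which gave the depths and the count tests.

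From these values, limma-trend (limma 3.58.1, R 4.3.3) was fitted to log2(RPM + 1) with 1 mean per group, two-sided. Separate fits covered the ovarian set (27 libraries, 15401 genes), the culture course (27 libraries, 16065 genes) and D21 (12 libraries, 14392 genes). Genes needed a mean of at least 1 RPM in 1 group of the fit. P-values were Benjamini-Hochberg adjusted over these genes, with a threshold of 0.05. Alternatives were a pseudocount of 0.1, no filter, median-of-ratios scaling, a replicate block, edgeR 4.0.16 (TMM, quasi-likelihood) and DESeq2 1.42.0 on the recovered reads, and each library left out in turn. The scripts were tested on simulated data. The series calls the libraries biological replicates but not whether they came from separate animals or cultures, so p-values measure the spread between these libraries.

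The members, comparisons, gene lists and motifs were chosen with earlier results of these data known. The members were always named, and for each list up to 3 called genes with the largest change were. Genes alike to a member had the highest Pearson r over group means among genes of at least 5 RPM, with predicted genes (Gm, Rik and LOC names) passed over. Marker lists held 12 granulosa, 8 stroma and theca, 7 endothelium, 7 blood and immune, and 7 germ cell and oocyte genes. Intervals are 95% intervals of the fits. Positions are those of GRCm38.p6, and promoter sequences are from RefSeq.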

Additional observations from a re-analysis of the deposited data

Results flagged for a closer look

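The size difference of Ccnd3 (small minus large oocytes) was larger at P6 than at P4 by 0.52 on the log2 scale, with an adjusted p of 0.048 by limma, which is why it is listed here. It was lost with a pseudocount of 0.1 (adjusted p = 0.053), with no filter (0.065), with median-of-ratios scaling (0.38, adjusted p = 0.14), with a replicate block (adjusted p = 0.058), with edgeR (0.40, adjusted p = 0.14) and with DESeq2 (0.38, adjusted p = 0.12). Leaving out each of 9 of the 12 libraries also lost it.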

How the results depend on the processing

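Values of Ccnd3 and Cdkn1b reversed. Small against large at P4, Ccnd3 was 0.03, but -0.44 with median-of-ratios scaling, -0.39 with edgeR and -0.44 with DESeq2. At P6 it was 0.55, but -0.06 with that scaling and -0.06 with DESeq2. Cdkn1b at D13 was -0.68 against D11 and 1.35 against D7.

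The count of called members moved by over 1.5 times in 5 comparisons with all libraries kept. By limma the shares of all genes called in these 5 were 8.52%, 7.47%, 46.1%, 1.02% and 6.85%, in the order below. Shares in the other settings are not set beside each count, so the moves are not a result about the members. For the size difference at P6 against P4 the member count was 1, and 0 with a pseudocount of 0.1, no filter, scaling, block, edgeR or DESeq2. For D11 against D9 it was 1, and 0 with a pseudocount of 0.1 or no filter, and 2 with scaling, block, edgeR or DESeq2. For D20 against D13 it was 2, and 1 with no filter, 3 with a pseudocount of 0.1 or scaling and 4 with edgeR (45.5% of all genes) or DESeq2 (48.3%). For Tg hypoxia it was 1, and 0 with no filter and 2 with DESeq2, and for Tg against WT of ungiven oxygen it was 0, and 2 with DESeq2. Smaller moves were from 8 to as few as 6 (E16.5), from 8 to 7 (E18.5), from 6 to 7 (P4), from 7 to 6 (P6), from 6 to 5 (D9), from 8 to 7 (D13, and 9 against D7) and from 3 to 4 (WT hypoxia). The counts of P1, P3, Tg against WT in normoxia and in hypoxia, and the difference in hypoxia effect did not move in these settings.

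Genes called in Tg hypoxia numbered 147, and 0 with no filter, 94 with the block, 365 with edgeR and 1044 with DESeq2. Tg against WT gave 1 in normoxia (2 with scaling or edgeR, 1662 with DESeq2), 1 in hypoxia (2 with DESeq2), and 986 for ungiven oxygen (292 with a pseudocount of 0.1, 479 with no filter, 1 with the block, 1 with edgeR and 1604 with DESeq2). The difference in hypoxia effect gave 0, and 2 with DESeq2.

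With 1 library left out, called members ranged from 0 to 1 (P6 against P4), 0 to 4 (D11 against D9), 1 to 2 (D20 against D13; P3 against P1), 0 to 3 (WT hypoxia), 0 to 0 (Tg hypoxia), 0 to 1 (Tg in normoxia) and 0 to 2 (Tg, ungiven oxygen). Called genes ranged from 508 to 2827 (D11 against D9), 845 to 2441 (P3 against P1), 560 to 1864 (P6 against P4), 16 to 6011 (WT hypoxia), 0 to 0 (Tg hypoxia), 1 to 5202 (Tg in normoxia), 2 to 3171 (Tg, ungiven oxygen) and 0 to 2338 (difference in hypoxia effect). The cause of these differences was not tested.

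Equal replicate numbers were not taken to pair the libraries. Deviations of same-numbered libraries correlated at -0.27 to 0.39 over the comparisons with 3 pairs, and none of these had every pair above 0.1, though at D13 against D11 all 3 libraries correlated best with their own number. At D21, with 2 pairs, the values were 0.12 for Tg against WT in normoxia and -0.17 to 0.00 in the others, and 2 pairs cannot settle it. With the replicate block Cdkn1b passed at D11 against D9 (0.73, adjusted p = 0.042) and the Ccnd3 interaction did not pass. Depth limits Cdk6, with 14 of 66 libraries at 3 reads or fewer, and at D21 the 2 libraries per group limit every call.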
